A study of Homo sapiens with 8 samples.

Results

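The genes described here encode the proteins of the cytosolic ribosome. They were taken by name from the m6A peak lists: the letters RPL or RPS, a number and an optional A, X or L, plus RPLP0, RPLP1, RPLP2 and RPSA. The rule leaves out the RPS6K kinases and the mitochondrial ribosomal proteins, and no measured value entered it. Of 84 RefSeq symbols with such a name, 50 had a peak in at least 1 of the 4 lists, out of 8758 genes with a peak. They carried 616 of the 130622 listed peaks. By name, 33 of the 50 belong to the large subunit and 17 to the small subunit, against 52 and 32 among the 84 symbols.

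The lists come from MeRIP-seq, in which fragmented RNA is pulled down with an antibody against N6-methyladenosine (m6A) and compared with input RNA that was not pulled down. U2OS and 143B are established human osteosarcoma lines. Each line was infected with a lentiviral short hairpin against METTL14 (shMETTL14) or, per the labels, with a control hairpin (NC, also given as shNC). There is 1 antibody library and 1 input library for each of the 4 combinations of line and hairpin, 8 libraries in all. The labels name 1 hairpin against METTL14 without its sequence, and input libraries enter only through the lists. RNA levels and the depth of METTL14 knockdown were not analysed here. With 1 list per group, no difference below has a replicate check.

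Each messenger RNA of the ribosomal proteins is short and very abundant, and most start with a pyrimidine tract, the 5′ TOP motif, which places their translation under mTOR signalling. METTL14 and METTL3 form the complex that writes m6A on messenger RNA, at adenosines that are densest around stop codons and in the 3′ UTR. Near-identical processed pseudogenes and paralogs of these genes can share reads with them, so the gene assignment of any one peak is uncertain.

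The start sites below show which of the genes the results turn on carry the 5′ TOP start. Each window holds the 20 bases before and the 10 bases from the RefSeq start on, and the capitals mark a C at the start followed by 4 bases that are each C or T.
RPS6: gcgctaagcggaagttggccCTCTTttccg
RPS24: ttggccggcgaatcgtggttCTCTTttcct
RPL26: accggaagcagcgtgtagttCTCTTccctt
RPL38: ccggaaacggaagtctcgttCTTTTtcgtc
RPL37A: cctgcgcaccgcgtctcttcCTTTCtgggc
RPL28: tcgcctcgcccctcgccttcCTCTTtccgt
RPL26L1: caggcagtcttccaggggtcggcgaacgaa
RPL7L1: cgcgccggaagtgcggcgccgtagctagga

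These windows are from RefSeq on GRCh38.p14, a later build than the hg19 of the peaks. RPS6 lies at chr9:19380227-19380256 and RPL26 at chr17:8383184-8383213, both on the minus strand. The other windows are on the plus strand, RPS24 at chr10:78033843-78033872, RPL38 at chr17:74203658-74203687, RPL37A at chr2:216498824-216498853, RPL28 at chr19:55385912-55385941, RPL26L1 at chr5:172958709-172958738 and RPL7L1 at chr6:42879596-42879625. RPS6, RPS24 and RPL26 had a site in every list, RPL38 and RPL37A had sites in NC lists that were missing from shMETTL14 lists, and RPL28 was the reverse in U2OS. RPL26L1 and RPL7L1 are like-named paralogs of RPL26 and RPL7, and neither window holds the motif.

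The search read only the transcribed strand at the annotated start, so it cannot overlap another match. Among the 67 symbols with a RefSeq start, 47 (70.1%) held the motif at one of their starts, against 1404 of all 27305 genes in that table (5.14%). The share was 28 of 40 (70.0%) among genes with a peak and 19 of 27 (70.4%) among genes with no peak. The shares with and without an m6A peak were thus alike, and no test of the difference was made. Of the like-named paralogs, 1 of 5 held it.

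Peaks on ribosomal protein genes had low fold enrichment and very low p-values. Both values are the authors' own, the fold being antibody signal over input, and they are used here only to describe peaks within their own list. In the U2OS shMETTL14 and NC lists the median fold of these peaks was 2.02 and 2.04, against 3.54 and 3.60 over all peaks of the same lists. In the 143B shMETTL14 and NC lists it was 1.97 and 2.04, against 3.59 and 3.80. Close to 1 in 2 ribosomal protein peaks had a fold under 2: 49.3% and 48.1% in U2OS shMETTL14 and NC, and 51.0% and 48.9% in 143B shMETTL14 and NC. Over all peaks that share was 9.02%, 8.48%, 10.9% and 7.15% in the same lists.

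The p-values ran the other way. In 143B shMETTL14 71.9% and in 143B NC 64.4% of the ribosomal protein peaks had a p-value at or below 1e-20, against 17.0% and 12.4% of all peaks. In U2OS shMETTL14 and NC the shares were 53.5% and 61.7%, against 13.2% and 12.9% of all peaks. A p-value listed as 0 was given to 8 of 142, 15 of 133, 22 of 153 and 22 of 188 ribosomal protein peaks in U2OS shMETTL14, U2OS NC, 143B shMETTL14 and 143B NC. Over all peaks of those lists, 48, 69, 122 and 79 had it. Read counts and RNA levels are not in the lists, so the part of transcript abundance in these p-values was not tested.

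**Figure D1:**
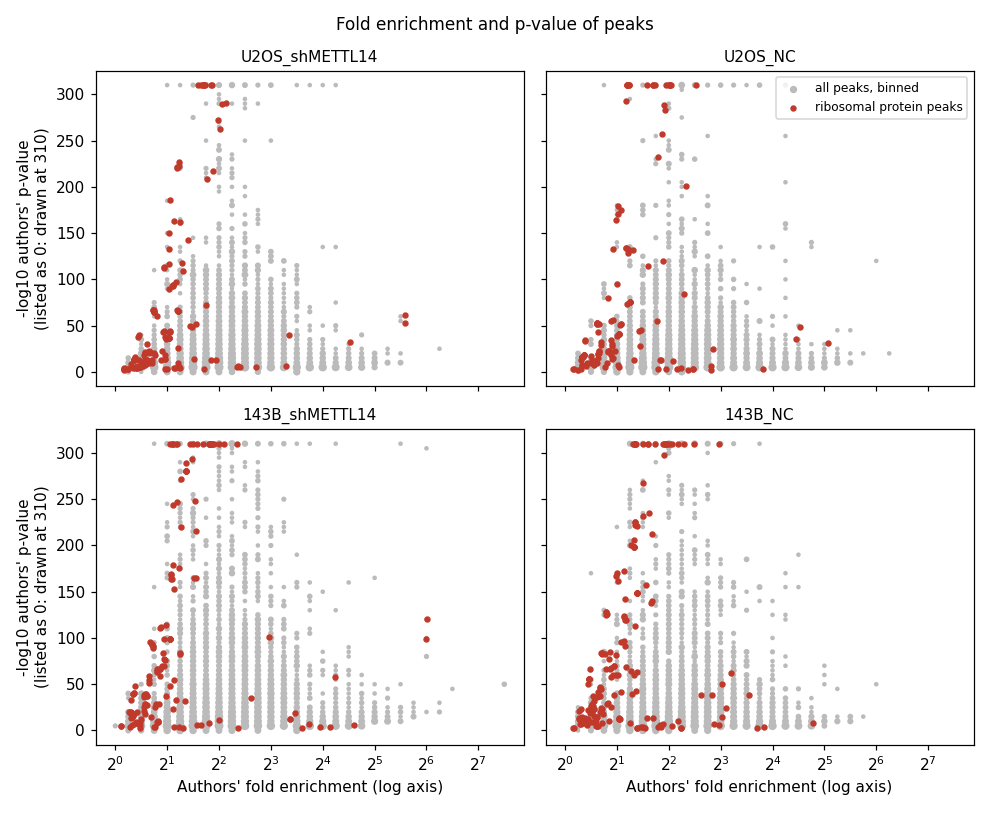
Fold enrichment (log axis) against -log10 p-value for the 4 lists, both as the authors give them. Red points are ribosomal protein peaks and grey points are all peaks in bins, larger where a bin holds more; the red points crowd at folds near 2 and reach the top of the p axis, where a p-value listed as 0 is drawn at 310.

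The stop codon was the usual place of these peaks. In U2OS shMETTL14 and NC 57.0% and 58.6% of the ribosomal protein peaks spanned coding sequence and 3′ UTR, and in 143B shMETTL14 and NC 58.2% and 60.1%. Over all peaks the share lay between 15.7% and 16.6%. Peaks within the coding sequence alone made up 20.4%, 15.8%, 13.1% and 10.6% of the ribosomal protein peaks in U2OS shMETTL14, U2OS NC, 143B shMETTL14 and 143B NC, against 54.2%, 53.6%, 49.98% and 50.3% over all peaks. Peaks in the 3′ UTR alone were about as frequent as elsewhere, at 18.3% to 25%, against 22.4% to 25%.

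The transcripts under these peaks are short. Their median length was 804, 805, 855 and 809 nt in the same order of lists, against 3284 to 3389 nt over all peaks. The peaks themselves were 175 to 179 nt wide at the median, against 209 to 236 nt, and covered a median of 20.9% to 23.4% of the transcript, against 6.61% to 7.58%. The part of transcript length in the shares by region was not tested.

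**Figure D2:**
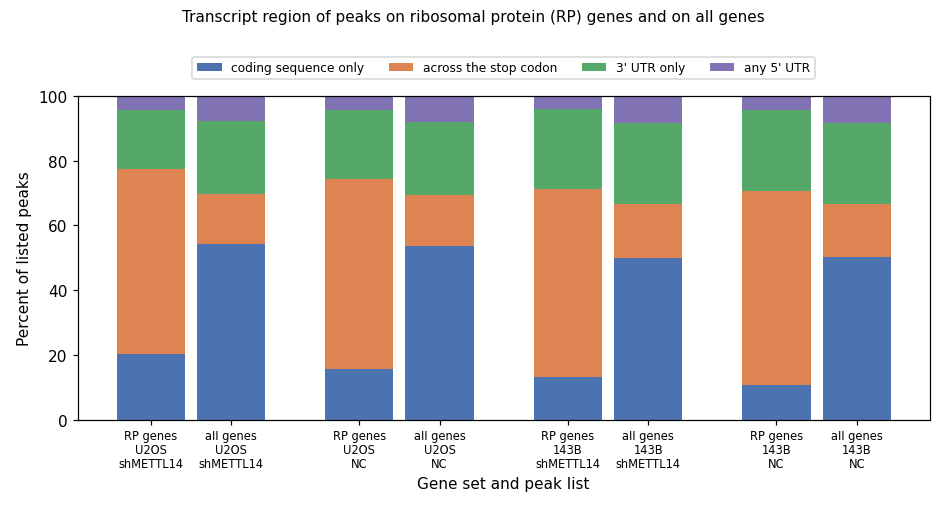
Percent of listed peaks by transcript region, for ribosomal protein (RP) genes and for all genes in each of the 4 lists. The segment for peaks across the stop codon is 57.0% to 60.1% for ribosomal protein genes and 15.7% to 16.6% for all genes.

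The lists repeat a position for every isoform that covers it, so overlapping peaks of 1 gene were joined to sites within a list and to loci over the 4 lists. The ribosomal protein genes had 47 sites on 37 genes in U2OS shMETTL14 and 47 on 37 in U2OS NC. In 143B they had 59 sites on 40 genes in shMETTL14 and 70 on 48 genes in NC. Joined over the lists, these made 81 loci: 33 in all 4 lists, 13 in 3 lists, 13 in 2 and 22 in 1. In percent, 40.7% of them were in all 4 lists, against 30.2% of the 18923 loci of all genes, and 27.2% were in 1 list, against 37.8%. The 33 common loci lie on 30 genes, and 25 of them had a peak across the stop codon. Below, the p-value and fold of a locus in a list are those of its peak with the lowest p-value there, unless the highest fold is named. That peak can be on a different isoform from list to list.

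**Figure D3:**
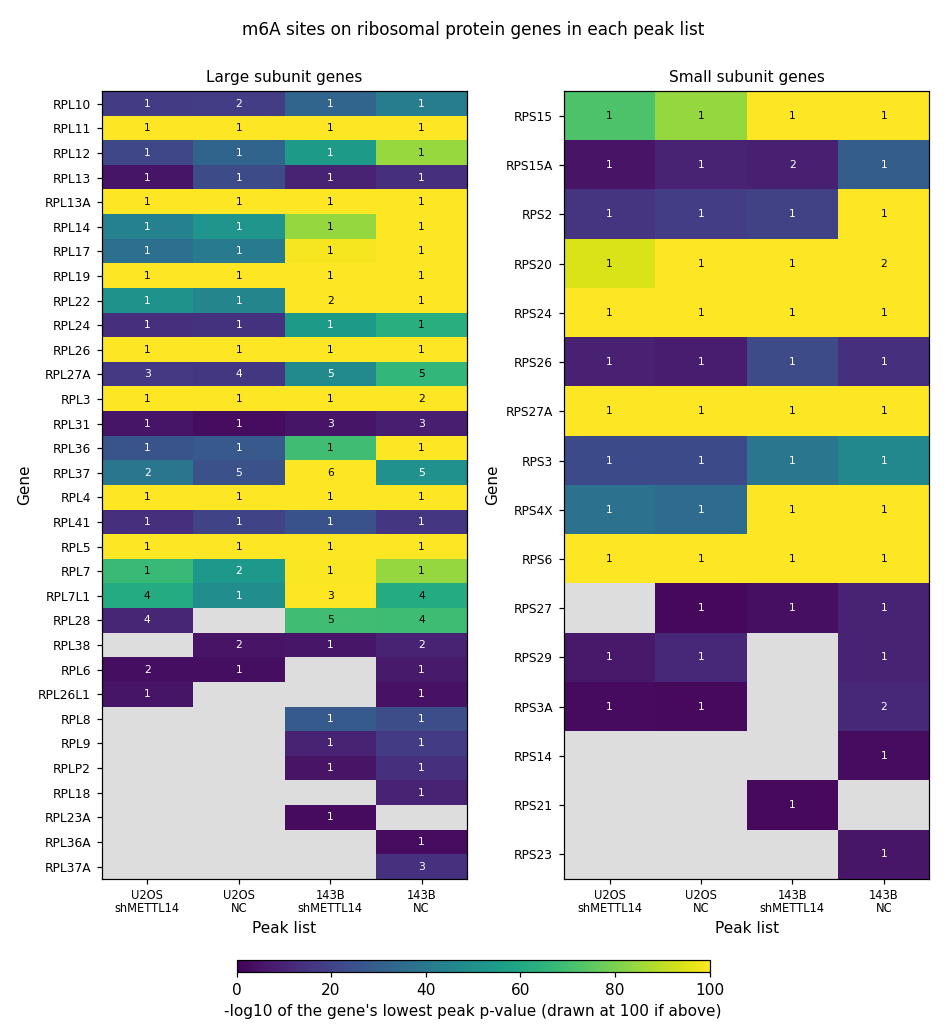
Ribosomal protein genes with a peak, by list, without those not reported here: columns are the 4 lists, rows the genes of each subunit, numbers the sites of the gene and colours -log10 of its lowest p-value (drawn at 100 if above); grey means no peak. Genes with a peak in all 4 lists fill the upper rows, and those with grey cells in both U2OS lists stand in the lower rows of each panel.

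Among the small subunit genes common to all lists, RPS6 and RPS24 had the strongest sites. RPS6, the classical substrate of the S6 kinases, had its locus at chr9:19376096-19378759 with p listed as 0 everywhere. The fold there was 3.30 in U2OS shMETTL14, 4.14 in U2OS NC, 5.08 in 143B shMETTL14 and 7.83 in 143B NC. RPS24, one of the genes mutated in Diamond-Blackfan anaemia, had p listed as 0 in all lists at chr10:79795409-79814505. Its fold was 3.64 in U2OS shMETTL14, 5.78 in U2OS NC, 3.72 in 143B shMETTL14 and 4.51 in 143B NC. Both sites are in every list, with p-values too low to be told apart. The peaks behind these folds are on different isoforms. For RPS6 the transcript has 1387 nt in U2OS shMETTL14 and 143B NC and 863 nt in the other lists. For RPS24 it has 656 nt in U2OS shMETTL14 and 2814 nt in the other lists.

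RPS27A, made as a fusion with ubiquitin, had p-values of 1e-118 and 1e-120 in U2OS shMETTL14 and NC, and of 0 and 1e-235 in 143B shMETTL14 and NC, at chr2:55462567-55462870. RPS15, a protein of the head of the small subunit, had p-values of 7.94e-73 and 1e-84 in U2OS shMETTL14 and NC, and of 1e-293 and 1e-212 in 143B shMETTL14 and NC. RPS20 had p-values of 6.31e-95 and 1e-134 in U2OS shMETTL14 and NC, and of 1e-169 and 1e-225 in 143B shMETTL14 and NC. RPS4X had p-values of 5.01e-38 and 1.58e-35 in U2OS shMETTL14 and NC, and of 1e-176 and 1e-142 in 143B shMETTL14 and NC. RPS2, RPS3, RPS15A and RPS26 were also common to the lists. RPS2 had p-values of 3.16e-20 in 143B shMETTL14 and 1e-128 in 143B NC at folds of 1.24 and 1.72.

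Among the large subunit genes, RPL5 and RPL11 bind 5S RNA and, when free of the ribosome, the p53 ligase MDM2. RPL5 had p listed as 0 in all 4 lists at chr1:93299185-93307481, with folds of 3.23 and 3.0 in U2OS shMETTL14 and NC, and 2.97 and 2.84 in 143B shMETTL14 and NC. Its peak covered 745, 775, 745 and 745 nt of a transcript of 1043 nt in that order of lists. RPL11 had p-values of 1e-163 and 1e-133 in U2OS shMETTL14 and NC and of 0 in both 143B lists, with folds between 1.91 and 2.59. RPL5 and RPL11 were thus in every list, with a lowest p-value of at most 1e-133.

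RPL26, which lies near the peptide exit tunnel, had p-values of 1e-291 in U2OS shMETTL14 and 0 in the other 3 lists. Its folds at chr17:8280838-8283185 were 4.37 and 4.0 in U2OS shMETTL14 and NC, and 3.66 and 4.17 in 143B shMETTL14 and NC. RPL4 had folds of 2.66 in U2OS shMETTL14 and 5.06 in U2OS NC, and 2.91 and 3.74 in 143B shMETTL14 and NC, on a peak of 447 nt in each list. RPL13A had p-values of 1e-186 and 0 in U2OS shMETTL14 and NC and of 1e-244 and 0 in 143B shMETTL14 and NC, at folds of 2.07 to 3.04. RPL19 had 1e-227 in U2OS shMETTL14 and 0 in the other 3 lists, at folds of 2.16 to 2.55. RPL3, which lies near the peptidyl transferase centre, had a common site with p-values of 1e-117 and 1e-175 in U2OS shMETTL14 and NC, and of 1e-114 and 1e-172 in 143B shMETTL14 and NC. The common stop codon site of RPL27A had low folds, 1.31 and 1.27 in U2OS shMETTL14 and NC and 1.31 and 1.40 in 143B shMETTL14 and NC.

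RPL7L1 and RPL37 had common sites of high fold in long 3′ UTRs. RPL7L1, the paralog of RPL7, had a common 3′ UTR locus at chr6:42854198-42855605. The peak with the lowest p-value there was on a transcript of 4476 nt, with p-values between 1e-121 and 1e-49. That peak had folds of 47.9 and 23.1 in U2OS shMETTL14 and NC, and 64.3 and 9.13 in 143B shMETTL14 and NC. The highest fold over the isoforms was 47.9 and 33.4 in U2OS shMETTL14 and NC, and 64.3 and 11.7 in 143B shMETTL14 and NC. The highest fold of RPL7 itself at its common locus was 1.68 and 1.58 in U2OS shMETTL14 and NC, and 1.93 and 1.98 in 143B shMETTL14 and NC, in the coding sequence and 5′ UTR. The RPL37 locus at chr5:40827577-40828175, in the 3′ UTR of an isoform of 7686 nt, had folds of 10.2 and 7.19 in U2OS shMETTL14 and NC and of 7.78 and 8.14 in 143B shMETTL14 and NC. The stop codon site of RPL37, on an isoform of 637 nt, had folds of 1.63 and 1.56 in U2OS shMETTL14 and NC and of 1.80 and 2.57 in 143B shMETTL14 and NC. The same gene thus held both kinds of site, a weak one by fold near the stop codon of its short isoform and a strong one far downstream.

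The series compares m6A peaks of shMETTL14 and NC cells. A site of the shMETTL14 list that no NC peak of the line overlapped is called gained, and a site of the NC list that no shMETTL14 peak overlapped is called lost. Both words describe membership of the lists, not a measured change of methylation. In U2OS, 10 of 47 ribosomal protein sites were gained (21.3%, exact Clopper-Pearson 95% interval 10.7% to 35.7%), against 24.9% of all sites of that list. As many, 10 of 47 (21.3%, interval 10.7% to 35.7%), were lost, against 31.1% of all sites. The U2OS counts of gained and lost sites on these genes were thus equal, and both shares have intervals that reach the share over all sites. The lost share changed with the setting, and lay below that of all genes in 9 of 10 settings. By listed peak, 11 of 133 were lost (8.27%), against 26.9%. Dropping the weaker peaks by p-value from both lists left 1 of 35 sites lost (2.86%, interval 0.0723% to 14.9%), against 23.2%. The fold cut that follows went the other way. With only peaks of a fold at or above the median of each list kept, 11 of 18 sites had no partner (61.1%), against 41.6% of all sites. The cut was put on both lists, so a site still listed in shMETTL14 at a lower fold counts as lost here. RPL4 is such a site, with a fold of 5.06 in U2OS NC and 2.66 in U2OS shMETTL14.

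In 143B, 9 of 59 sites were gained (15.3%, interval 7.22% to 27.0%), against 32.0% of all sites. There, 18 of 70 sites were lost (25.7%, interval 16.0% to 37.6%), against 24.5% of all sites. Over all genes of 143B gained sites were the more numerous, 4167 gained and 3039 lost, while the ribosomal protein genes had 9 gained and 18 lost. The lost share was close to that over all sites, and the interval of the gained share ended below the gained share over all sites. By class of p-value, given below, the gained share lay below that of all genes in some classes and above it in others. The intervals cover counting error only and treat sites as independent, which sites of 1 gene are not.

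**Figure D4:**
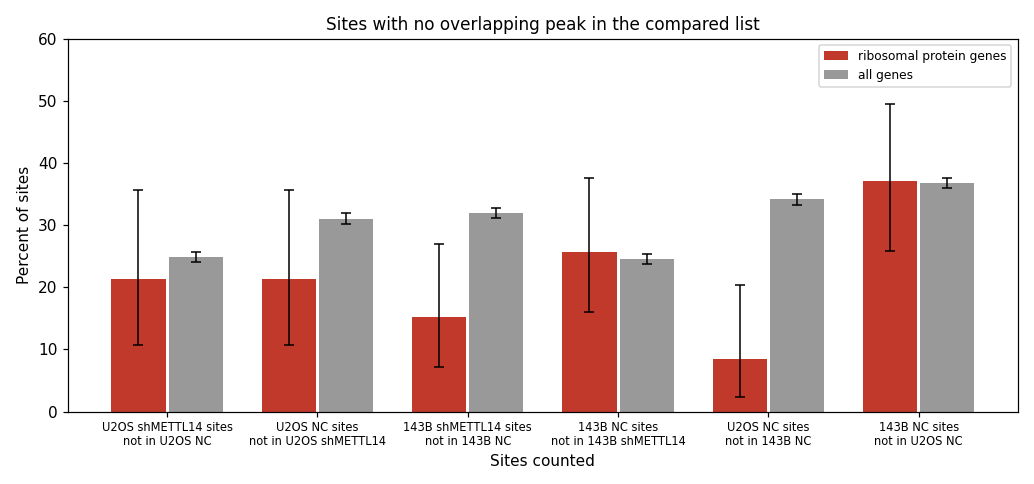
Percent of sites with no overlapping peak in the compared list, for ribosomal protein genes and all genes; error bars are exact 95% intervals for counting error only. The ribosomal protein bar stands at 15.3% against 32.0% for sites gained in 143B and at 8.51% against 34.2% for U2OS NC sites not in 143B NC, and its interval includes the bar for all genes in the other 4 pairs.

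By gene, the picture in the lines differed in number. In U2OS 2 of 37 genes, RPL26L1 and RPL28, had peaks in shMETTL14 and none in NC (5.41%, against 12.4% of all genes). RPL38 and RPS27, 2 of 37 genes, had peaks in NC and none in shMETTL14 (5.41%, against 16.9%). In 143B 2 of 40 genes, RPL23A and RPS21, appeared in shMETTL14 alone (5.0%, against 15.5%). There 10 of 48 genes appeared in NC alone (20.8%, interval 10.5% to 35.0%, against 11.8%). Among them are RPL6, RPL18, RPL26L1, RPL36A, RPL37A, RPS3A, RPS14, RPS23 and RPS29.

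By subunit, large subunit genes held all of the gained U2OS sites, 10 of 34 (29.4%), against 0 of 13 for the small subunit, where 0 allows a share of up to 24.7%, and against 24.9% of all sites. Of these 10, 7 are on RPL28 and RPL7L1. They held 9 of 33 lost U2OS sites (27.3%), against 1 of 14 (7.14%) for the small subunit and 31.1% of all sites. In 143B 7 of 45 large and 2 of 14 small subunit sites were gained, 15.6% and 14.3%, against 32.0% of all sites. Lost in 143B were 12 of 52 large subunit sites (23.1%) and 6 of 18 small subunit sites (33.3%), against 24.5% of all sites. The intervals of the subunits overlap in each of these comparisons. That is no test of a difference between subunits, and none was made.

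Strong sites stayed. Of the ribosomal protein sites with a lowest p-value at or below 1e-20, none of 23 was gained and none of 25 lost in U2OS, and none of 36 was gained and none of 36 lost in 143B. A count of 0 of 25 allows up to 13.7% and 0 of 36 up to 9.74% (exact intervals). Over all genes such sites were as rarely in 1 list of a line, with 0 of 1279 gained and 1 of 1358 lost in U2OS, and 1 of 2025 gained and 1 of 1354 lost in 143B. The gained U2OS sites had a median p-value of 2.72e-06, against 5.01e-38 for the shared sites of that list. The lost U2OS sites had a median of 0.00108, against 5.01e-35 for shared ones. In 143B the gained sites had a median of 0.000240, against 4.50e-55, and the lost sites a median of 2.95e-08, against 7.13e-61.

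The classes of p-value below were chosen with these values known and are a description. Of the 11 ribosomal protein sites of 143B NC with a p-value between 1e-20 and 1e-10, 5 were lost (45.5%), against 22 of 1599 over all genes (1.38%). Of those 5, 3 are on RPL37A and the others on RPS3A and RPS29. Of the 11 between 1e-10 and 1e-05, 6 were lost (54.5%), against 10.3%. Of the 59 ribosomal protein sites of 143B shMETTL14, 36 had a p-value at or below 1e-20, against 2025 of 13041 over all genes. Gained there were 0 of 4 sites between 1e-20 and 1e-10 (against 3.79%) and 3 of 10 between 1e-10 and 1e-05 (30%, against 23.4%). Above 1e-05, 6 of 9 were gained (66.7%, against 58.0%). The part of this mix of p-values in the gained share was not tested. Sites of like p-value can differ in fold. Among 143B sites with a highest fold under 2, 12 of 26 were lost (46.2%, interval 26.6% to 66.6%), against 28.5% over all genes. Of such sites 3 of 24 were gained (12.5%, interval 2.66% to 32.4%), against 39.8%. The part of fold in these shares was not tested.

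**Figure D5:**
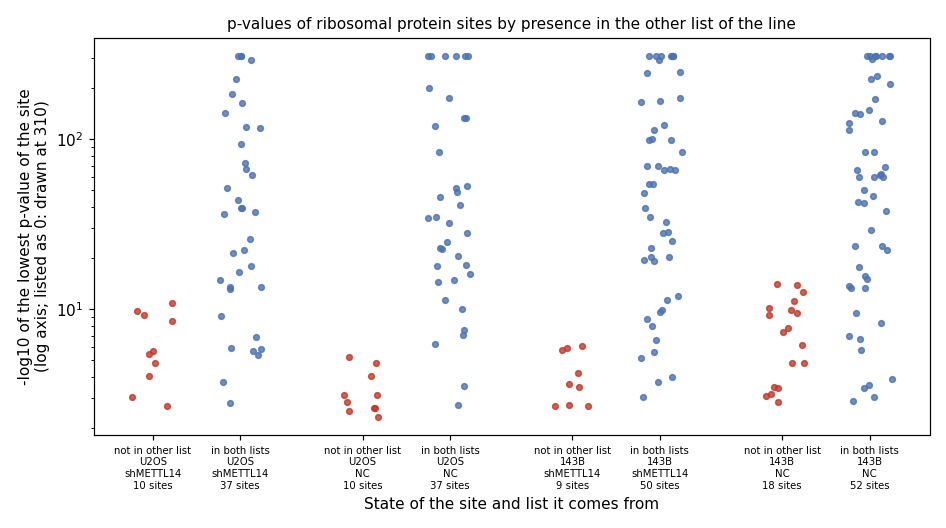
Lowest p-value of each ribosomal protein site, as -log10 on a log axis, for sites absent from the other list of the line (red) and present in both (blue), in U2OS shMETTL14, U2OS NC, 143B shMETTL14 and 143B NC. No red point has a p-value at or below 1e-20 in any of the 4 lists, and the 18 lost sites of 143B NC reach down to 7.94e-15.

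The lost 143B sites of these classes, 5 and 6 in number, lie on 8 genes. RPL37A had 3 of them, on the exons of different isoforms at chr2:217366120-217366210, chr2:217385447-217394149 and chr2:217443700-217443787. Their p-values in 143B NC were 1.58e-14, 7.94e-15 and 2.00e-13 at folds of 1.23, 1.25 and 1.21, and no other list held an RPL37A peak. These values are near-equal, and sites on isoforms of a single gene do not count as separate evidence. RPS3A had one at chr4:152025643-152025804 (p 6.31e-12, fold 1.29), RPL18 one at chr19:49118585-49118644 (p 3.24e-10, fold 1.44) and RPL3 one at chr22:39708887-39709273 (p 5.13e-10, fold 1.28). RPL6 (p 4.17e-08, fold 1.23) and RPS23 (p 6.76e-07, fold 1.35) each had 1, RPL38 had 2, and RPS29 had the other one.

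Of the 81 loci, 3 were in both NC lists and in neither shMETTL14 list, and RPL38 had 2 of them. How often loci of all genes have this pattern was not counted. In mice RPL38 is needed for the translation of a subset of Hox messenger RNAs. Its 3′ UTR locus at chr17:72205486-72205600 had no peak in the shMETTL14 lists, against p 1.55e-05 and fold 2.07 in U2OS NC and p 1.74e-08 and fold 1.63 in 143B NC. The locus at chr17:72205985-72206105 likewise had none in the shMETTL14 lists, against p 6.17e-06 and fold 1.70 in U2OS NC and p 1.20e-10 and fold 1.81 in 143B NC. In 143B shMETTL14 a site with p 9.12e-07 and fold 24.4 stood just downstream at chr17:72206135-72206314, so at the level of the gene RPL38 kept a peak in 143B. The third such locus was in the 3′ UTR of RPL31 at chr2:101621397-101621516, with p 0.000741 in U2OS NC and 0.000347 in 143B NC. A larger RPL31 locus next to it, chr2:101621546-101622113, was gained in U2OS (p 3.31e-06, fold 6.54) and listed in 143B shMETTL14 (p 2.45e-06, fold 2.97) and NC (p 5.50e-09, fold 27.4). Some of these calls depend on the overlap rule. With peaks within 100 bp on the same strand counted as shared, the second RPL38 locus was not lost in 143B and the site downstream of it was not gained. Under that rule the smaller of these RPL31 loci was not lost in U2OS and the larger was not gained.

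The reverse pattern, both shMETTL14 lists and neither NC list, was found at 1 of the 81 loci, and its share over all genes was not counted. The locus was in the 3′ UTR of RPL7L1 at chr6:42857484-42857604, with p 0.000912 in U2OS shMETTL14 and 0.000339 in 143B shMETTL14, at folds of 2.0 and 1.68. Both p-values are in the weaker range of their lists.

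RPL28 accounted for 4 of the 10 gained U2OS sites. They lie on exons of different isoforms at chr19:55899464-55899610, chr19:55899640-55899827, chr19:55902966-55903107 and chr19:55914353-55914497. In U2OS shMETTL14 their p-values ran between 1.26e-11 and 2.63e-09 at folds of 1.51 to 1.64, and U2OS NC listed no RPL28 peak. The same loci were present in both 143B lists, with p-values between 3.16e-70 and 3.98e-67 in shMETTL14 and between 1.26e-69 and 7.94e-61 in NC. RPL7L1 gave 3 more of the gained U2OS sites, with folds of 2.0 to 5.27. Thus 7 of the 10 gained U2OS sites came from 2 genes.

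The lost U2OS sites with the highest folds had high p-values. RPL7 had one in the 5′ UTR (fold 14.1, p 0.000776), RPL37 had 3 in its long 3′ UTR (folds of 7.06, 5.56 and 4.71) and RPL27A had 1 (fold 4.49). RPL10 had 1 on a patch contig that repeats its locus (fold 5.56, p 0.00240), while its chromosome X site was in both U2OS lists. RPS27 was lost in U2OS with p 0.00479 and fold 1.19 and was present in 143B shMETTL14 (p 9.77e-05, fold 1.21) and 143B NC (p 2.82e-10, fold 1.38). Among the gained 143B sites after that of RPL38, the highest folds were those of RPL37 (17.7), RPS15A (15.5) and RPL23A (12.2), with p-values of 6.03e-05, 0.000240 and 0.00182. The lost 143B sites with the highest folds were those of RPS20 (13.0, p 0.00138), RPL36A (4.70, p 0.000661), RPS29 (4.53, p 7.94e-11) and RPS3A (4.17, p 1.41e-05). RPS29 was in both U2OS lists, with p 1.32e-07 in shMETTL14 and 5.01e-12 in NC, so its absence was seen in 143B shMETTL14 alone.

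The paralog pairs differed in how they were listed. RPL26 was in all lists with the values above, and RPL26L1 was in 2 of them, U2OS shMETTL14 (p 2.14e-06, fold 2.34) and 143B NC (p 1.51e-05, fold 1.54), at chr5:172396430-172396635. RPL7 and RPL7L1 were in all 4 lists. RPL3, RPL10 and RPL22 were in all 4 lists and RPS27 in 3, while their paralogs RPL3L, RPL10L, RPL22L1 and RPS27L had none. RPL39 and RPL39L had none.

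Between the control lists of the lines, 4 of 47 U2OS NC sites had no 143B NC peak (8.51%, interval 2.37% to 20.4%), against 34.2% of all sites. With only peaks of a fold at or above the median of each list kept, this share was 9 of 18 (50%), against 45.1%. Sites listed in 143B NC at a lower fold also count as missing under that cut. Of the 70 sites of 143B NC, 26 had no U2OS NC peak (37.1%, interval 25.9% to 49.5%), against 36.8%. By gene, 0 of 37 ribosomal protein genes of U2OS NC were missing from 143B NC, where 0 allows up to 9.49%, against 19.2% of all genes. There were 11 of 48 genes of 143B NC without a peak in U2OS NC (22.9%, interval 12% to 37.3%), against 21.6%. The U2OS NC genes were thus a subset of those of 143B NC.

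The 4 U2OS NC sites not in 143B NC belong to RPL6, RPL7, RPL10 and RPL37. RPL10, needed for the joining of the subunits, was listed on chromosome X in both U2OS lists (p 1.26e-18 in shMETTL14 and 5.01e-19 in NC). In 143B it was listed on a patch contig that repeats its locus (p 2.00e-33 in shMETTL14 and 1.26e-42 in NC), so its line difference is one of contig and not of gene. U2OS NC also listed a weaker RPL10 site on that contig (p 0.00240, fold 5.56). Among 143B NC sites with p at or below 1e-20, 5 of 36 had no U2OS NC peak (13.9%), against 3.32% over all genes. These were the 4 sites of RPL28 and the site of RPL8, p 3.16e-29 in 143B shMETTL14 and 2.51e-24 in NC. RPL9, and RPLP2 of the ribosomal stalk, were also in both 143B lists and in neither U2OS list.

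No peak in any list was found on 34 of the 84 symbols, 19 of the large and 15 of the small subunit. They include RPLP0 and RPLP1 of the stalk, RPSA, and RPS19, the gene most often mutated in Diamond-Blackfan anaemia. Besides the paralogs RPL3L, RPL10L, RPL22L1, RPL39L and RPS27L, they also include RPL10A, RPL15, RPL21, RPL23, RPL27, RPL29, RPL30, RPL32, RPL34, RPL35, RPL35A, RPL39, RPL7A, RPS7, RPS9, RPS10, RPS12, RPS13, RPS16, RPS18, RPS25 and RPS28. A missing peak is no measurement of methylation, since the lists hold only what the authors' threshold let through.

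Other genes, most of them of protein synthesis, were counted from lists set by name. Of 56 ribosome biogenesis factors, 44 and 45 had sites in U2OS shMETTL14 and NC and 49 and 48 in 143B shMETTL14 and NC. In U2OS 15 of their 77 sites were gained (19.5%, against 24.9% of all sites) and 13 of 78 lost (16.7%, against 31.1%). In 143B 23 of 92 were gained (25%, against 32.0%) and 4 of 80 lost (5.0%, interval 1.38% to 12.3%, against 24.5%). Lost in 143B were sites of GNL2, NOB1, NVL and WDR12, all factors of subunit assembly.

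A list of 20 genes was set by name as 5′ TOP genes, elongation and initiation factors among them, and their starts were not counted here. Of these, 17 had sites in each U2OS list and 18 in each 143B list. They had 2 of 25 sites gained (8.0%, against 24.9% of all sites) and 3 of 26 lost (11.5%, against 31.1%) in U2OS. In 143B 8 of 33 were gained (24.2%, against 32.0%) and 4 of 29 lost (13.8%, against 24.5%). The median over their sites of the highest fold of each site was 2.17 to 2.72 in the 4 lists. This is another measure than the medians over listed peaks given above. EEF1D, a subunit of the exchange factor of elongation, had gained and lost sites in both lines. Of 7 ribosomal proteins named otherwise, FAU, which encodes RPS30 as a fusion, and RPL36AL had peaks in all 4 lists. GNB2L1, the older symbol of RACK1, had 2 peaks in U2OS shMETTL14, 0 in U2OS NC and 1 in each 143B list.

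The lists hold no expression levels, so the identity of the cells could be looked at only through genes with a peak. Of 9 osteoblast lineage markers, RUNX2 and SPARC had peaks in all 4 lists and COL1A1 in 3, while SP7, ALPL, COL1A2, BGLAP, SPP1 and IBSP had none. Of 11 epithelial and immune markers, KRT8 and CD68 had peaks in all lists and KRT18 in the 143B lists, and the other 8, EPCAM, CDH1 and PTPRC among them, had none.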

How the data were processed

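The 4 m6A peak lists, 1 per antibody library, were analysed. The tools named per the submitters' processing notes are HISAT2, Trimmomatic and FastQC 0.11.5, and the build is hg19 (GRCh37). Not given in the sources used here are the caller of the peaks, its cutoff, the transcript annotation and the depth. Per the file headers, each peak has a p-value, a fold enrichment (a linear ratio made by the authors), the transcript length and its spliced blocks. The lists carry no counts, so depth is unknown.

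Peaks of 1 gene that overlap on the same strand were joined to sites. A site was shared when its blocks and those of any peak in the compared list had 1 bp or more in common. Shares carry exact Clopper-Pearson 95% intervals; no test across conditions was made. Positions count from 1. The members and gene lists were chosen with earlier results of these data known. Named genes are members in all 4 lists, those with peaks in 1 treatment of a line, the up to 10 lost, gained and shared sites of highest fold per line and the paralog pairs; sites named by p-value were chosen after their values were seen. Some members and pathway genes count in the totals but are not reported here by name. Start sequences came from RefSeq (GRCh38.p14). The m6A sequence motif was not searched, for want of an hg19 genome. The overlap count was tested on simulated data. Alternatives changed the overlap, the unit, the blocks, the p-values or folds kept and the paralogs; leaving out patch contigs was chosen after seeing the data. Python 3.11.15, numpy 2.4.6, pandas 2.3.3, scipy 1.17.1 and matplotlib 3.10.9 were used.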

Additional observations from a re-analysis of the deposited data

Results flagged for a closer look

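At 2 of the 81 loci the lines moved in opposite ways, and this difference was not tested. How often loci of all genes do so was not counted. The RPL26L1 locus had 4 more listed peaks in shMETTL14 than in NC in U2OS, and a difference of -4 in 143B. The first RPL6 locus, at chr12:112843092-112843692, had 2 more in shMETTL14 than in NC in U2OS and a difference of -2 in 143B. Its peak had p 0.00200 and fold 1.12 in U2OS shMETTL14, the lowest fold of that list. In 143B NC it had p 4.17e-08 and fold 1.23. The peaks of a locus are isoforms of 1 signal, and each line has 1 list per hairpin.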

How the results depend on the processing

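Of the alternative values, 43 stayed within the counting interval of the value reported and 11 moved. Counting listed peaks gave a gained share of 6.54% in 143B (all genes 27.3%) and a lost share of 8.27% in U2OS (all genes 26.9%). Counting genes gave gained shares of 5.41% in U2OS (all genes 12.4%) and 5.0% in 143B (all genes 15.5%). The lost share in U2OS was then 5.41% (all genes 16.9%). Also by gene, 0% of U2OS NC genes were missing from 143B NC (all genes 19.2%) and 22.9% of 143B NC genes from U2OS NC (all genes 21.6%). Keeping in both lists only peaks no weaker by p-value than the NC median, 2.86% of U2OS sites were lost (all genes 23.2%). With folds at or above the median of each list, 33.3% were gained in 143B (all genes 42.9%), 61.1% lost in U2OS (all genes 41.6%) and 50% of U2OS NC sites missing from 143B NC (all genes 45.1%). The last 2 thus turned to above all genes. This cut was put on both lists, so sites present in the compared list at a lower fold count as missing, and the part of this in the turn was not tested. Over the 10 settings of each share, the ribosomal protein genes lay below all genes in 10 for sites gained in U2OS, 10 for gained in 143B, 9 for lost in U2OS, 3 for lost in 143B, 9 for U2OS NC sites missing from 143B NC and 4 for 143B NC sites missing from U2OS NC. No paired analysis was possible because each group has 1 list and the labels carry no replicate numbers. Without counts, the depth behind a peak is unknown.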
